A study of Mus musculus with 4 samples.

Results

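Nup98-HoxA9 ES clone #9 was compared with Nup98-HoxA9 ES clone #1, which makes 2 of the 4 samples of the series, with 1 array for each line. Both clones carry the same transgene, so the question was which transcripts they did not share, on chromosome 15 and on the other chromosomes. Both descend from parental EB3, a mouse embryonic stem (ES) cell line kept on gelatin with leukaemia inhibitory factor (LIF). They express FLAG-tagged Nup98-HoxA9, which joins the N-terminal FG-repeat part of the human nucleoporin Nup98 to the C-terminal part of HoxA9, from a Tol2 transposon vector that inserts into the genome, and were grown out under hygromycin as single colonies. The remaining 2 samples were parental ES cells, without a transgene, and the HoxA9-Ct ES clone, which expresses the C-terminal part of HoxA9 alone. All 4 lines were cultured as undifferentiated ES cells with LIF. Each transgenic line is 1 clone, so what belongs to a clone and what belongs to its array cannot be told apart, and no test was possible.

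Nup98 is a component of the nuclear pore, and its fusion to HoxA9 arises by chromosomal translocation in acute myeloid leukaemia, where it raises the transcription of Hox genes. The Hox genes lie in clusters that set position along the body axis and are silent in ES cells. Cloned ES cell lines can differ from each other in the number of copies of a chromosome, in the state of imprinted loci (where only the allele of 1 parent is transcribed) and in the share of cells that pass through a state resembling the 2-cell embryo.

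The arrays were SurePrint G3 Mouse GE 8×60K arrays hybridised with Cy3-labelled RNA, sharing a slide and a scan. Outside the controls they gave 55562 probes, of which RefSeq accessions named 20257 genes, 753 on chromosome 15 and 19503 on other chromosomes. Each level below is the log2 processed signal minus the 75th percentile of the array, and each difference is clone #9 minus clone #1 on that scale. The scanner software called 50.6% of spots well above background in clone #1 and 53% in clone #9. Among 253 probes printed 10 times and above background in both clones, the spread between spots gave the difference a median SD of 0.098. For 2770 genes with exactly 2 probes above background in both clones, however often printed, the 2 differences lay a median of 0.12 apart. These values cover technical error within an array and not the variation between cultures. Genes of ES cells were read in both clones. All 24 measured genes of the pluripotency list were above background in both, among them Pou5f1, which encodes Oct4, at 6.56 in parental cells, 6.49 in clone #1, 6.28 in clone #9 and 6.44 in the HoxA9-Ct clone. The reference genes Gapdh and Actb differed by -0.18 each between the clones, and Nup98 itself, read at a mouse probe, by -0.19.

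Both clones were well above background at 26871 probes, with 796 (2.96%) over 2-fold higher in clone #9 and 240 (0.893%) over 2-fold lower. Taking each gene at its brightest probe, 489 of 13028 (3.75%) were over 2-fold higher and 82 (0.629%) lower. For scale, HoxA9-Ct ES differed from parental ES by over 2-fold at 1.29% of probes above background in both, and clone #9 from clone #1 at 3.86%. Of 70 genes over 2-fold apart that had a further probe above background in both clones, 65 had every probe on the same side of 0 and 43 had every probe over 2-fold the same way.

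Chromosome 15 stood apart as a whole. Its 880 probes above background in both clones had a median difference of 0.32, with quartiles of 0.07 and 0.55, against -0.07 for the 21027 probes of the other chromosomes. The gap of 0.39 corresponds to a 1.31-fold ratio. Among the 19 other chromosomes with at least 100 such probes the medians ran from -0.10 to -0.04, so none came near. Relative to parental ES, the median of the same chromosome 15 probes was 0.33 for clone #9, 0.02 for clone #1 and 0.02 for the HoxA9-Ct clone. These values share the parental array, and clone #9 is the line that stood apart.

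**Figure D1:**
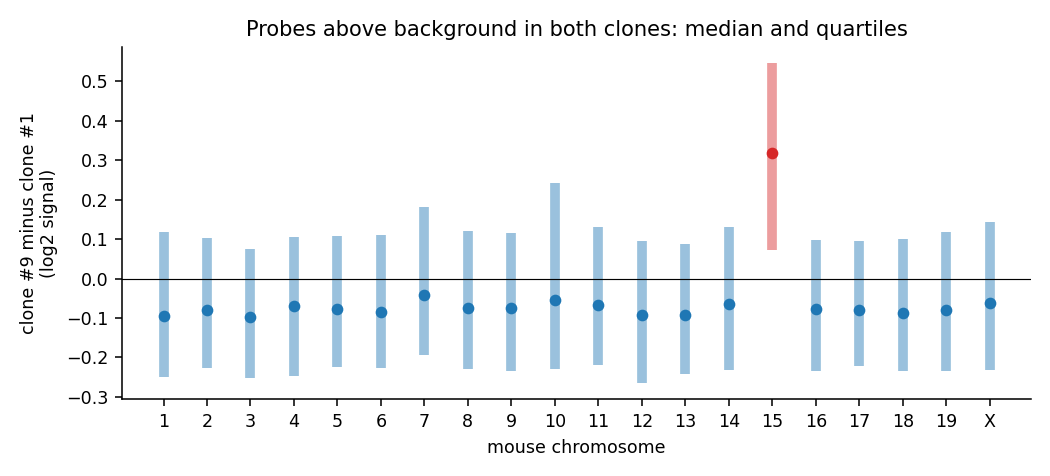
Difference between the clones (clone #9 minus clone #1, log2 signal, vertical axis) for each mouse chromosome with at least 100 such probes (horizontal axis), over probes above background in both clones. Points are medians and bars run from the lower to the upper quartile; chromosome 15 (red) has a median of 0.32 and the 19 others shown lie between -0.10 and -0.04.

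The shift ran along the chromosome. The 538 genes of chromosome 15 measured in both clones were put in order and cut into 21 blocks of 25. Every block had a median between 0.28 and 0.48. The last block ended at Hoxc6, and the few genes after it were in no block. Of 490 blocks on the other chromosomes, 5 exceeded the lowest of these, 3 of them consecutive on chromosome 10. In all, 86.4% of measured genes on chromosome 15 were higher in clone #9, against 41.2% on the other chromosomes. The size also changed little with level over most of the range. The gap between chromosome 15 and the rest was 0.46 for genes with a mean level of -2 to 0, 0.45 from 0 to 2, 0.48 from 2 to 4, 0.49 from 4 to 6 and 0.46 from 6 to 8. It was smaller at both ends, 0.15 for the 79 chromosome 15 genes below -2 and 0.20 for the 11 genes above 8. Probes that the array names by position, many of them for noncoding transcripts, moved less: the 209 on chromosome 15 had a median of 0.05, against -0.14 for those elsewhere.

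**Figure D2:**
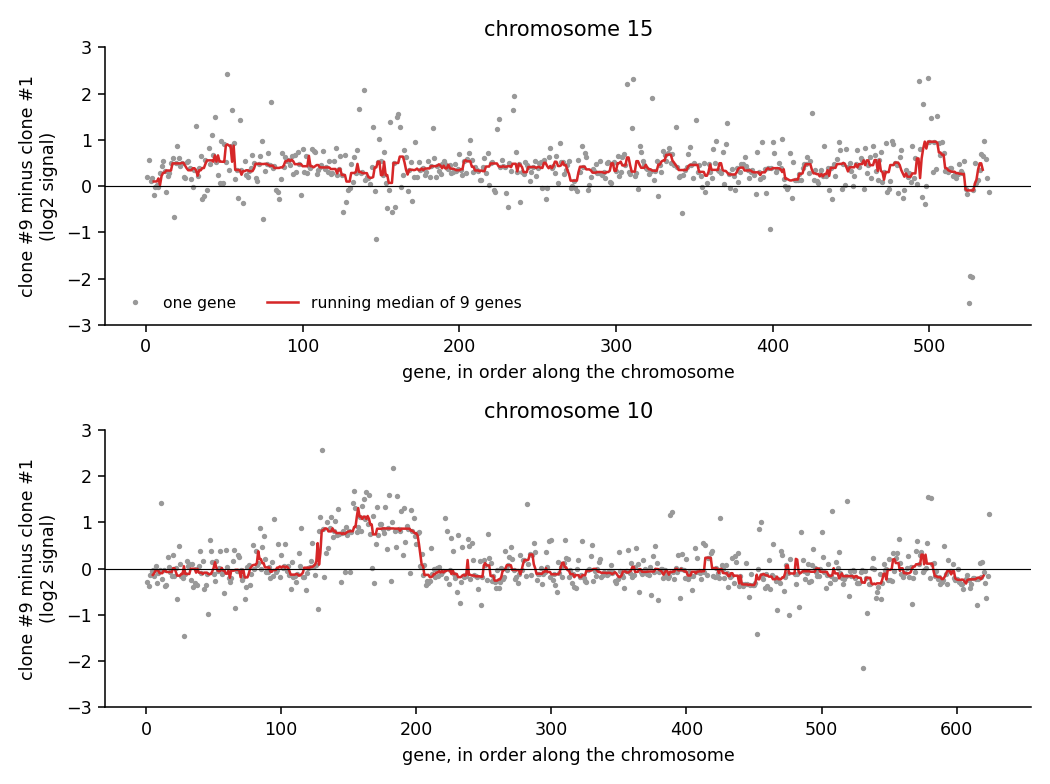
Difference between the clones (log2 signal, vertical axis) for genes above background in both clones, in order along chromosome 15 (upper panel) and chromosome 10 (lower panel); grey points are genes and the red line is the running median of 9 genes. On chromosome 15 the line stays above 0 for nearly its whole length, with the Hox-C genes as the low points near the right end, and on chromosome 10 a single stretch of 73 genes rises to a median of 0.86.

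Because multi-subunit complexes draw their genes from several chromosomes, members on and off chromosome 15 could be set side by side within the same complex. Over 8 complexes and pathways, 21 of 24 members on chromosome 15 (87.5%) were higher in clone #9, with a median of 0.36. Elsewhere it was 43 of 198 members (21.7%), with a median of -0.12. Over all measured genes, 86.4% on chromosome 15 and 41.2% elsewhere were higher, with medians of 0.38 and -0.06. The members are among these genes, so the split restates the shift of the chromosome and is not a separate result. In eIF3, which recruits the small ribosomal subunit to mRNA, the chromosome 15 subunits Eif3d, Eif3e, Eif3h and Eif3l differed by 0.43, 0.40, 0.27 and 0.22. The 9 subunits encoded elsewhere had a median of -0.11, and none was above 0. Among RNA polymerase subunits, Polr2f and Polr2k, on chromosome 15, gave 0.52 and 0.68, against a median of -0.02 for the 21 encoded elsewhere. Among nucleoporins and transport factors, the nuclear basket protein Nup50 gave 0.46, the scaffold nucleoporin Nup155 0.29, Aaas 0.39 and Rangap1, which activates the GTPase Ran, 0.51. The other 54 had a median of -0.10.

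The cohesin subunit Rad21 differed by 0.31 and its loader Nipbl by 0.60, while Smc1b, the meiotic form of the cohesin subunit Smc1, was over 2-fold higher at 1.42. Heterochromatin protein Cbx5 (HP1alpha) gave 0.49, and the chaperonin subunit Cct5 gave 0.35. Among large ribosomal subunit proteins, Rpl3, Rpl8 and Rpl37, all at levels above 9, gave -0.10, 0.02 and -0.03, and Rpl30 gave 0.34. The 41 encoded elsewhere had a median of -0.20 and a highest value of -0.11, so these 4 lay above them though 3 were close to 0 or below it. The tubulins Tuba1b and Tuba1c gave -0.07 and 0.02, and Tuba1a gave 0.48.

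**Figure D3:**
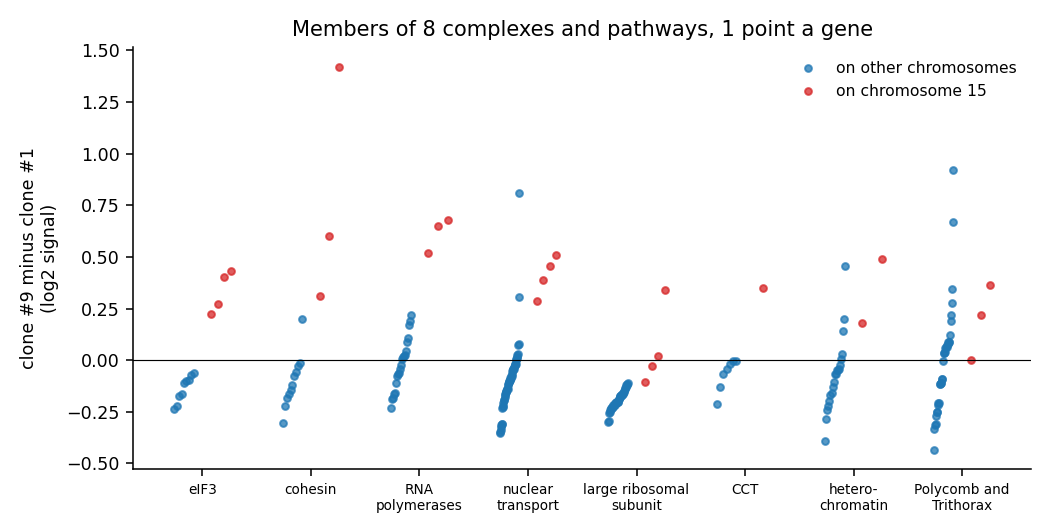
Difference between the clones (clone #9 minus clone #1, log2 signal, vertical axis) for each gene of 8 complexes and pathways (horizontal axis), split into genes on chromosome 15 (red) and on other chromosomes (blue); each point is 1 gene. In eIF3 and the RNA polymerases all red points lie above all blue ones, as they do in the large ribosomal subunit, where 3 of 4 red points lie at 0.02 or below.

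The cytokine receptor Lifr, which receives LIF and lies on chromosome 15, gave -0.13 at its brightest probe. Its other probes disagreed, at -0.50 and 0.28. In a list of 15 genes around the oncogene Myc on chromosome 15, 13 were above background in both clones, with a median of 0.37 and 0 over 2-fold. Over all 538 measured genes of the chromosome the median was 0.38, with 6.32% over 2-fold higher. Myc itself was at 1.59 in parental cells, 1.38 in clone #1, 1.62 in clone #9 and 0.99 in the HoxA9-Ct clone, and its noncoding neighbour Pvt1 was lower in clone #9 by 0.56. Sqle, an enzyme of cholesterol synthesis, differed by 0.82, and Ndrg1 by 0.77.

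With the shift included, 59 chromosome 15 probes (6.70%) were over 2-fold higher in clone #9 and 5 (0.568%) over 2-fold lower. On the other chromosomes the counts were 599 (2.85%) and 193 (0.918%). By gene, 34 of 538 (6.32%) were over 2-fold higher and 4 (0.74%) lower, against 455 (3.64%) and 78 (0.62%) of 12489 on the other chromosomes. Apart from these, 28 genes were above background in clone #9 alone, 4 of them at least 2-fold higher there. In clone #1 alone it was 6 genes, 3 of them at least 2-fold higher there. Elsewhere 713 and 141 genes were above background in clone #9 alone and in clone #1 alone, 218 and 50 of them at least 2-fold. Of the 10 genes with the largest rises in clone #9 on the chromosome, 3 were keratins of epithelia and hair. Krt79 stood at -1.44 in parental cells, -1.52 in clone #1, 0.82 in clone #9 and -1.16 in the HoxA9-Ct clone. For Krt7, a keratin of simple epithelia, the levels were -3.46, -3.39 and -1.12 in parental ES, clone #1 and clone #9, while the HoxA9-Ct clone was dim. Krt71, a hair follicle keratin, gave -2.52, -2.67, -0.90 and -2.34 in the order parental ES, clone #1, clone #9 and the HoxA9-Ct clone. In these 3 genes clone #9 lay above the other lines. With normexp background correction, whose offset pulls low signals together, Krt7, Krt71, Mei1, Col22a1, Baalc, Ly6h, Hoxc5 and Mroh5 among the genes of chromosome 15 came within 2-fold, the same way round.

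Krt18 and its partner Krt8 behaved otherwise, since clone #1 was already above parental ES. Krt18 was at 2.48 in parental cells, 3.23 in clone #1, 4.70 in clone #9 and 2.55 in the HoxA9-Ct clone, and Krt8 at -0.81, 1.13, 2.09 and -0.19. Of 30 keratin genes on the array, 16 were above background in both clones, 4 of them over 2-fold higher in clone #9 and 0 lower, and all 4 were on chromosome 15. Over 2-fold higher were 3.75% of all genes and 34 of 538 (6.32%) on chromosome 15. The 9 measured on chromosome 15 had a median of 0.96. Krt5 was above background in clone #9 alone and at least 2.24-fold higher there. Krt20 and Krt23, on chromosome 11, were likewise above background in clone #9 alone, at least 3.47-fold and 8.58-fold higher.

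The Ly6 genes encode small GPI-anchored surface proteins and lie together on chromosome 15. Ly6a, known as Sca-1, was at -3.04 in parental cells, -0.61 in clone #1, 0.88 in clone #9 and -1.52 in the HoxA9-Ct clone. Ly6c1 was at -1.74, 0.40, 1.97 and -0.29 in the same order. Both clones lay above both other lines, clone #9 the higher, with differences of 1.49 and 1.57. Ly6h and Ly6k differed by 1.28 and 1.38. Of 14 measured members of the family, 4 were over 2-fold higher in clone #9, all on chromosome 15, and 0 lower, beside the same 3.75% of all genes and 6.32% of those on chromosome 15. Near-identical members of this family may share probes, so the value of a single one is uncertain.

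The largest rise in clone #9 on chromosome 15, among genes measured in both clones, was at Cmbl, a hydrolase, at 5.41-fold. Cmbl was at -3.16 in parental cells, -2.99 in clone #1, -0.56 in clone #9 and -3.02 in the HoxA9-Ct clone. Tnfrsf13c, a receptor of B cells, and Mei1, a gene of meiosis, gave 2.31 and 2.21, the collagen gene Col22a1 2.09, and Cyth4 1.95. Nfam1 gave 1.90 and Baalc 1.81. Among genes above background in clone #9 alone, Ncf4, a subunit of the phagocyte oxidase, was at least 2.96-fold higher, Faim2 at least 2.47-fold and Rgs22 at least 2.09-fold.

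Hox-C genes went the other way and made up most of the falls. Hoxc6 was at -6.54 in parental ES and -6.49 in the HoxA9-Ct clone, not well above background, but at 1.88 in clone #1 and -0.64 in clone #9, a 5.76-fold ratio. Hoxc4 was at 1.75 in clone #1 and -0.22 in clone #9, against -4.41 in parental ES and -3.14 in the HoxA9-Ct clone. Hoxc5 was at -1.57 in clone #1 and -3.50 in clone #9. Thus both clones lay above the lines without Nup98-HoxA9, clone #1 the higher. Hoxc9 and Hoxc13 differed by -0.17 and -0.07, Hoxc8 was above background in clone #1 alone, and Hoxc10, Hoxc11 and Hoxc12 in neither. The fourth gene over 2-fold lower was Mroh5, at -1.15. The glutamate transporter gene Slc1a3 gave -0.67, the synaptotagmin gene Syt10 -0.92, and the epithelial factor Grhl2 -0.70, though Grhl2 was at 2.38 in parental ES and below 0 in both clones.

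Among genes above background in clone #1 alone, Csdc2 was at least 19-fold and Angpt1, an angiopoietin, at least 6.49-fold higher in clone #1. Both were read at single probes in the last 48 of the 384 rows of spots, which held 12.3% of probes printed once but 41.6% of those at least 2-fold higher in clone #1 and dim in clone #9. The part of that position in these 2 values was not tested. Kcnk9 was at least 2.29-fold higher in clone #1.

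When clone values were set against the range spanned by parental and HoxA9-Ct ES, widened by 0.5 on each side, 25 of 52 chromosome 15 probes over 2-fold higher in clone #9 had clone #9 alone outside it, 14 had clone #1 alone, and 4 had the clones on opposite sides. Over all 25529 probes above background on the 4 arrays, clone #9 alone was outside for 8.90% and clone #1 alone for 3.74%. A 2-fold gap between clones itself makes such a position likely.

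On chromosome 10 a single stretch differed between the clones, and there clone #1 was the line that stood apart. It ran over 73 genes, from Speer5-ps1 to Ado in RefSeq order, and was defined, after its values were seen, as the genes whose running median over 9 neighbours exceeded that of the other chromosomes by over 0.4. The median difference was 0.86, a 1.81-fold ratio, with quartiles of 0.72 and 1.12, while the remaining genes of chromosome 10 had a median of -0.08. Relative to parental ES, the median of the stretch was -0.69 for clone #1, 0.10 for clone #9 and 0.07 for the HoxA9-Ct clone, which all share the parental array. Clone #1 had the lowest level of the 4 lines at 60 of the 73 genes. Outside chromosomes 10 and 15 the longest such stretch held 14 genes, on chromosome 7 among the kallikrein genes.

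**Figure D4:**
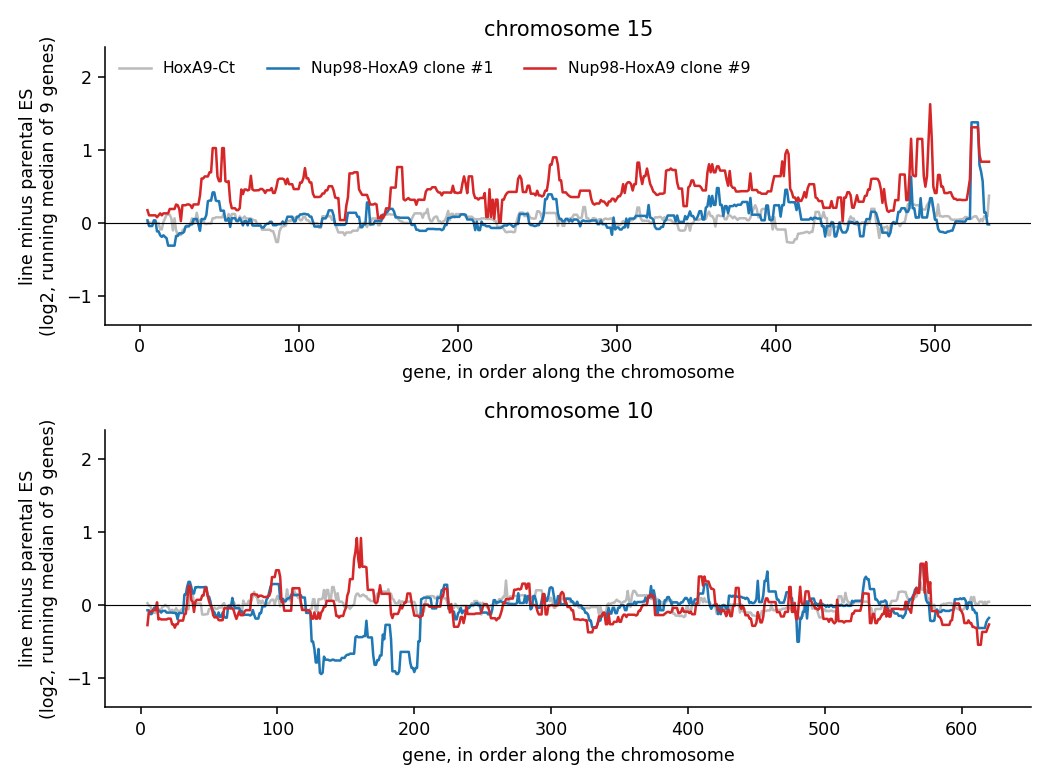
Running median over 9 genes of each line minus parental ES (log2 signal, vertical axis), for genes above background in both clones in order along chromosome 15 (upper panel) and chromosome 10 (lower panel); grey is HoxA9-Ct ES, blue clone #1 and red clone #9. Clone #9 lies above parental ES along chromosome 15 (median 0.33), and clone #1 lies below it in the stretch of chromosome 10 (median -0.69); all 3 lines share the parental array.

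At its edges, before the first gene, Mtres1 differed by 0.08 and Cd24a by -0.87, and then Qrsl1 and Rtn4ip1, just outside the definition, by 0.82 and 1.12. After Ado, at 0.79, Zfp365 differed by 0.06, Arid5b by 0.31 and Rhobtb1 by -0.14. Within it, 25 genes were over 2-fold higher in clone #9, 66 were above 0 and 7 below. The 7 were Prdm1, Gja1, Pkib, Ccdc138, Prf1, Tacr2 and Pbld1, at -0.31 to -0.07.

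The stretch holds genes of varied roles, of which those named here were chosen after their values were seen. Nodal, the TGF-beta family ligand that patterns the early embryo, was at 3.84 in parental cells, 2.86 in clone #1, 4.18 in clone #9 and 4.04 in the HoxA9-Ct clone. Lefty1 and Lefty2, which encode secreted Nodal inhibitors and are themselves induced by Nodal signalling, lie on chromosome 1. Lefty1 was at 2.97, 1.49, 2.55 and 2.46 in the same order of lines, and Lefty2 at 3.40, 2.04, 3.27 and 2.77. For these 3 genes clone #1 was the lowest line.

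Ranbp2, the nucleoporin of the cytoplasmic pore filaments, was at 2.39 in parental cells, 1.54 in clone #1, 2.35 in clone #9 and 2.34 in the HoxA9-Ct clone, and it had the largest difference, 0.81, of all 58 genes of the nuclear transport list. The deacetylase gene Sirt1 differed by 0.82, the autophagy gene Atg5 by 0.86, the RNA helicase genes Ddx21 and Ddx50 by 0.82 and 1.24, and the hexokinase gene Hk1 by 1.01. P4ha1, a subunit of the collagen prolyl hydroxylase, was at -1.87 in parental cells, -2.20 in clone #1, -0.51 in clone #9 and -1.86 in the HoxA9-Ct clone. Hkdc1, a hexokinase domain gene, was at -2.90, -2.87, -0.70 and -3.11. For these 2 genes it was clone #9 that stood apart from the other lines. Srgn differed by 1.57.

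The largest differences of all lay outside chromosome 15, among them genes known from the 2-cell embryo and from the rare ES cells that resemble it. Of 14 genes on the list for that state, 10 were on the array. Of the 5 above background in both clones, Zscan4a, Zscan4c, Zscan4f and Tmem92 were over 2-fold higher in clone #9, against 3.75% of all genes. Tcstv1, Tcstv3, Usp17la, Usp17lc and Arg2 were above background in clone #9 and not in clone #1, and Zfp352 differed by -0.33. Of all 20257 genes, 741 were above background in clone #9 alone and 147 in clone #1 alone. Zscan4 proteins act in telomere maintenance in ES cells. Zscan4f was at 3.27 in parental cells, 0.15 in clone #1, 5.17 in clone #9 and 3.25 in the HoxA9-Ct clone, and Zscan4c at 2.73, -0.17, 4.66 and 2.62. The clones therefore lay on opposite sides of the other lines, which were nearly equal, and the ratio between the clones reached 32.5-fold for Zscan4f. A probe of Zscan4c in the last 48 rows gave at least 39.1-fold, and the remaining Zscan4a and Zscan4c probes above background in both clones gave 4.87 and 4.80.

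Gm428 had the largest difference of any gene measured in both clones, 5.82, at 0.57 in parental cells, -2.18 in clone #1, 3.64 in clone #9 and 0.66 in the HoxA9-Ct clone. BB287469, AF067061, Gm8300, Gm20767, Pramel31 and Gm4312 differed by 5.03, 4.84, 4.83, 4.78, 4.63 and 4.55. Gm428 and 1 of the Zscan4a probes were read in the last 48 of the 384 rows of spots. In each of these 7 genes, both lines without Nup98-HoxA9 fell between the clones. Among genes dim in clone #1, Gm11757 was at least 41.1-fold and Pramel16 at least 21.7-fold higher in clone #9, Usp17la at least 17.4-fold, Tcstv3 at least 11.6-fold and Tcstv1 at least 5.91-fold. A second probe of Usp17la gave 0.06, and a second probe of E330014E10Rik, which was at least 19.4-fold higher at its brightest probe, gave 1.20. Many of these genes are near-identical copies, so a probe may read several and the value of a single copy is uncertain.

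Promoters of 4 genes of this group are printed, all of which hold the letters TATAAA. Those of Zscan4c and Zscan4f show how alike copies can be. The RefSeq sequences (build GRCm38.p6, 250 bases before to 50 after the annotated start, all on the forward strand) are those of Gm428 at chr4:73683264-73683563, Zscan4c at chr7:11005495-11005794, Zscan4f at chr7:11397665-11397964 and Pramel31 at chr4:144357714-144358013. Capitals mark the letters TATAAA on either strand, and in Gm428 a forward and a reverse match overlap.
Gm428: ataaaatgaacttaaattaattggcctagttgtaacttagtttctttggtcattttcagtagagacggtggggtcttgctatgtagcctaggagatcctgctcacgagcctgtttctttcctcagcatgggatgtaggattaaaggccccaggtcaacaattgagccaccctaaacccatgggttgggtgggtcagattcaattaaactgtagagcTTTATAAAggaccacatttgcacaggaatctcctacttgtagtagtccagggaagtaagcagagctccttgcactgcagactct
Zscan4c: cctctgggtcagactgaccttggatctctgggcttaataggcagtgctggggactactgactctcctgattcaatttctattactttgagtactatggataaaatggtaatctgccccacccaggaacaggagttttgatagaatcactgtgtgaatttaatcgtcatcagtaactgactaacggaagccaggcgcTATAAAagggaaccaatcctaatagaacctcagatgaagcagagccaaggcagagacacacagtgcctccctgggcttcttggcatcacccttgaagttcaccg
Zscan4f: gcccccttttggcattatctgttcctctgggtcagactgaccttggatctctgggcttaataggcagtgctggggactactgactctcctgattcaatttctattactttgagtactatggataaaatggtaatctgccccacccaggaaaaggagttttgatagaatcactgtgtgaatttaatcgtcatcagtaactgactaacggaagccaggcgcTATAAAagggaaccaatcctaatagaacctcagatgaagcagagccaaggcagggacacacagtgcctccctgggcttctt
Pramel31: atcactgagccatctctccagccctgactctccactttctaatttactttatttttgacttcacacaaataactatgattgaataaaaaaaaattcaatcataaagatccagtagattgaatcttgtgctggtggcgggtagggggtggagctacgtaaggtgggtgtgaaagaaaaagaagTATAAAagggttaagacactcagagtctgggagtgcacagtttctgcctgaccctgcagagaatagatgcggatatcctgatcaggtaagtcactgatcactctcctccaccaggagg
The Zscan4c and Zscan4f windows were identical at 275 of 277 aligned bases (99.3%). TATAAA stood 54 bases before the annotated start in Zscan4c, 31 in Zscan4f, 32 in Gm428 and 68 in Pramel31. Of the 10 genes with the largest rises outside chromosome 15, 7 had a RefSeq promoter and 4 of these held TATAAA on either strand, as did 13.6% of all 32851 promoters. The 4 that held it are the 4 printed, and those without it are not shown. Zscan4c and Zscan4f are near-identical and do not count as separate cases. The letters are a description and do not show that a factor binds there.

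**Figure D5:**
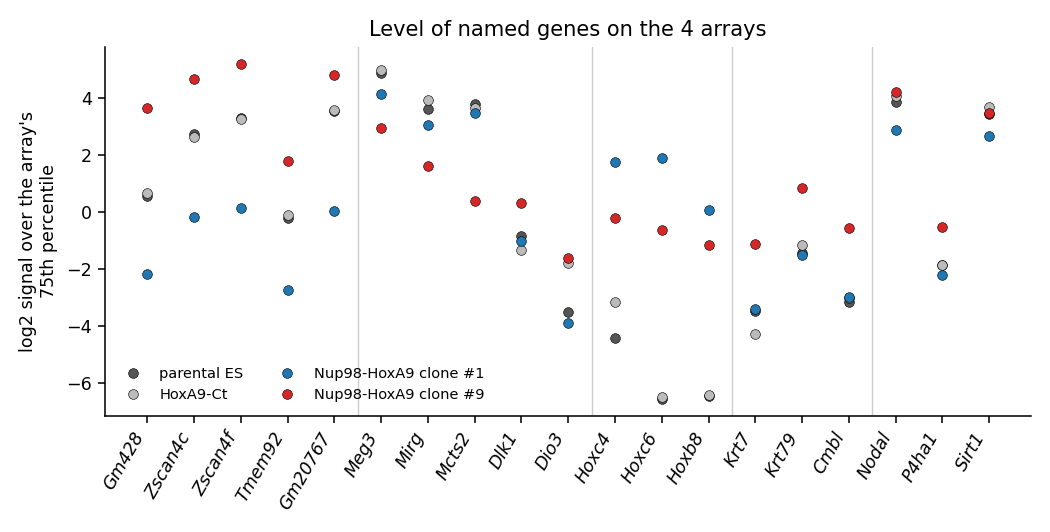
Level (log2 signal over the 75th percentile of the array, vertical axis) of 19 named genes (horizontal axis) on the 4 arrays; each point is 1 array. From left to right the groups are genes of the 2-cell-like state, imprinted genes, Hox genes, chromosome 15 genes and genes of the chromosome 10 stretch. Grey points lie between blue and red ones in the first group, and the red point lies below all others for Meg3, Mirg and Mcts2.

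Imprinted loci differed in both directions. The noncoding RNA gene Meg3, transcribed from the maternal allele on chromosome 12, was at 4.87 in parental cells, 4.14 in clone #1, 2.92 in clone #9 and 4.97 in the HoxA9-Ct clone, and its 3 probes gave -1.21, -1.34 and -1.54. Mirg, a host transcript of microRNAs in the same domain, was at 3.61, 3.04, 1.61 and 3.92. Both clones were below parental ES, clone #9 the lower. The array also names probes by mm9 position, and 76 of them lay between the first and last of a group of falls at chr12:110738120-110988678, a window chosen after its values were seen. Of the 31 above background in both clones, 21 were over 2-fold lower in clone #9 and 30 below 0, with a median of -1.07. Relative to parental ES the medians were -0.86 in clone #1, -1.89 in clone #9 and 0.13 in the HoxA9-Ct clone.

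Genes of the same domain that are transcribed from the paternal allele went the other way. Dlk1, a Notch ligand homologue, was at -0.83 in parental cells, -1.03 in clone #1, 0.31 in clone #9 and -1.35 in the HoxA9-Ct clone. Dio3, a deiodinase, was at -3.50, -3.89, -1.61 and -1.79. With normexp both came within 2-fold, at 0.93 each. For Dlk1, clone #9 stood above the other lines, but for Dio3 HoxA9-Ct ES lay beside clone #9. Rtl1 was not above background in either clone.

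A fall in clone #9 alone of the 4 lines was at Mcts2, a retrogene transcribed from the paternal allele inside an intron of H13 on chromosome 2. Mcts2 was at 3.77 in parental cells, 3.46 in clone #1, 0.38 in clone #9 and 3.65 in the HoxA9-Ct clone, an 8.46-fold ratio between the clones at 1 probe. The neighbours and positions that follow were chosen after their values were seen. The 4 probes of H13 disagreed: 2 gave 0.65 and 0.60 and 2 gave -0.22 and -0.56. On the same chromosome, 4 probes named for chr2:174088550-174109425 in mm9 gave -4.72 to -4.16, with medians of 1.59 in parental cells, 1.39 in clone #1, -3.20 in clone #9 and 1.39 in the HoxA9-Ct clone. Gnasas1, an antisense transcript of the imprinted Gnas locus, was at -3.05, -3.24 and -3.04 in parental ES, clone #1 and HoxA9-Ct ES, and was not above background in clone #9, at least 2.59-fold lower. The brightest Gnas probe differed by 0.075.

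Over the list of genes transcribed from the maternal allele, 4 of 16 measured were over 2-fold higher in clone #9 and 2 lower, with a median of 0.20. From the paternal list it was 5 of 20 and 0, with a median of 0.11. Over all genes the shares were 3.75% higher and 0.629% lower. The cell cycle inhibitor Cdkn1c was at 2.83 in parental cells, 1.12 in clone #1, 2.79 in clone #9 and 2.18 in the HoxA9-Ct clone, and Ascl2, a placental transcription factor, at 1.56, 0.38, 1.89 and 1.52. In these 2 genes of chromosome 7 clone #1 was the low line. The growth factor gene Igf2 was above background in the 2 clones only, at -3.42 in clone #1 and -2.01 in clone #9. Magel2, Peg10, Osbpl5 and Tspan32 differed by 1.57, 1.01, 1.02 and 1.22. These 4 and Igf2 came within 2-fold with normexp.

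Hox genes of clusters A and B, which Nup98-HoxA9 ES cells transcribe and parental ES cells mostly do not, were shared to different degrees. Of 11 measured Hox-A genes, 0 were over 2-fold higher in clone #9 and 1 was lower, with a median of -0.16. Hoxa7 was at 4.93 in clone #1 and 4.61 in clone #9, Hoxa9 at 0.62 and 0.70, and Hoxa3 at 2.68 and 2.83. How far the Hoxa9 probe reads the transgene was not tested. Hoxa11 was the exception, at 1.55 in clone #1 and 0.54 in clone #9, a difference of -1.01 that was -0.95 with the values of the series matrix. In Hox-B, 4 of 9 measured genes were over 2-fold lower in clone #9, with a median of -0.93, and Hoxb13 alone was above 0, at 0.80. Over all genes, 3.75% were over 2-fold higher and 0.629% lower. Hoxb6, Hoxb7, Hoxb8 and Hoxb9, neighbours in the cluster, differed by -1.15, -1.30, -1.24 and -1.06, and Hoxb9 alone of these was above background in parental ES, at -1.51. With normexp, Hoxb6, Hoxb7 and Hoxb9 differed by -0.71, -0.97 and -0.69. Skap2, next to Hox-A, was at 4.52 in clone #1 and 4.46 in clone #9, against 3.63 in parental ES.

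Of 15 measured genes of retinoic acid signalling and metabolism, 4 were over 2-fold higher in clone #9 and 0 lower, against 3.75% and 0.629% of all genes. The median was 0.73, against -0.05 over all genes. Stra8, a retinoic acid induced gene of germ cells, was at 1.97 in parental cells, 4.10 in clone #1, 6.18 in clone #9 and 2.31 in the HoxA9-Ct clone. Aldh1a2, which makes retinoic acid, was at -1.91, 0.20, 2.04 and -1.83. Both clones lay above the other lines by a similar step each time, clone #9 the higher. Cyp26a1, which degrades retinoic acid, and the receptor gene Rarb differed by 1.60 and 1.25 and were dim in the lines without Nup98-HoxA9. With normexp these 2 came to 0.43 and 0.54. Stra6 was above background in clone #9 alone, at least 4.68-fold higher. The receptor genes Rara, Rxra, Rxrb and Rxrg, by contrast, differed by -0.14, 0.18, -0.16 and -0.28, and Rarg, on chromosome 15, by 0.73.

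Among genes of the germline that DNA methylation silences elsewhere, 3 of 16 were over 2-fold higher in clone #9 and 0 lower, against 3.75% and 0.629% of all genes, with a median of 0.55. Besides Stra8 these were Tex13b and Tex101, at 2.47 and 2.13. The X-linked Xlr genes, a further multicopy family chosen after its values were seen, gave 3.69 at Xlr3b and at least 11.6-fold at Xlr4a, which was dim in the 3 other lines.

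Of 24 measured genes of core and naive pluripotency, 0 were over 2-fold higher and 1, Dppa3, was lower in clone #9, at -1.09, or -0.46 with normexp. The list had a median of -0.21. For this list and the next, the shares over all genes were 3.75% over 2-fold higher and 0.629% lower. Esrrb differed by -0.22, Sox2 by -0.32, Klf4 by -0.57, Nanog by -0.60 and Zfp42 by 0.27. Of 15 measured genes of the primed epiblast, 3 were over 2-fold higher, Nodal and both Lefty genes, and 1 lower. That was Otx2, a transcription factor of the epiblast, at 3.84 in parental cells, 2.47 in clone #1, 1.34 in clone #9 and 4.50 in the HoxA9-Ct clone. For Otx2 both clones lay below the other lines, and the difference of -1.13 was -0.97 with normexp.

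Markers of cell types other than ES cells were checked as lists, beside 3.75% of all genes over 2-fold higher and 0.629% over 2-fold lower. Of 16 fibroblast and feeder genes, 7 were above background in both clones, 3 of them over 2-fold higher in clone #9. These were Col1a1 and Col1a2, the chains of type I collagen, at 2.11 and 1.91, and Tagln at 1.01, which with normexp were 0.86, 0.74 and 0.96. Of the 7, 5 were above 0, and Fn1 and Vim gave -0.31 and -0.41. Fbn1, Acta2 and S100a4 were above background in clone #9 alone. Postn, Lum, Dcn, Fap and Col3a1, defining genes of fibroblasts, were not above background in either clone. Of 10 primitive endoderm regulators, Hnf4a was over 2-fold higher, at 1.85, and Lrp2 lower, at -1.01, which came within 2-fold in 4 of 6 other scalings, at -0.97 to -0.91. Of these 10 genes, 9 were above 0, with a median of 0.33 against -0.05 over all genes. Of 11 trophectoderm genes, Krt7, Krt18 and Ascl2, given above, were over 2-fold higher and 0 were over 2-fold lower. The 11 had a median of -0.11, with 5 above 0, and the 8 off chromosome 15 had a median of -0.18. Krt7 and Krt18 lie on chromosome 15. Gata3, Hand1 and Plac1 were above background in clone #9 alone, and Elf5 was above background in clone #1 alone. The neural and the streak and mesoderm lists had 1 gene each over 2-fold higher, Hes5 at 1.09 and Snai1 at 1.19, or 0.33 and 0.87 with normexp.

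The housekeeping and signalling lists that follow had 0 to 2 genes past 2-fold each, beside 3.75% of all genes higher and 0.629% lower. All 20 genes of cholesterol synthesis were within 2-fold, 18 of them higher in clone #9, with a median of 0.22. Of 45 large ribosomal subunit genes, 2 were above 0, with a median of -0.19 and 0 past 2-fold. ERK response genes had a median of -0.25, and Dusp6, a phosphatase that limits ERK, was the 1 of 16 past 2-fold, at -1.01, though at -0.95 in the series matrix. The p53 and cell cycle inhibitor list of 21 genes had a median of -0.40, with Cdkn1c and Cdkn2a over 2-fold higher, at 1.67 and 1.61. Nup153, Nup214 and Xpo1, the export receptor also called Crm1, differed by -0.15, 0.00 and -0.02.

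Among genes measured in both clones the largest fall was at Banf2, with a difference of -4.67. It was at -3.82 in parental cells, 0.61 in clone #1, -4.07 in clone #9 and not above background in the HoxA9-Ct clone. Tsc2, a suppressor of mTOR signalling, was at -2.55, -0.73, -3.67 and -2.02. These 2 and Galnt9, Nrarp and Cd99 were read in the last 48 rows of spots, 5 of the 10 largest falls outside chromosome 15, as were 21.9% of the probes over 2-fold lower and 15.4% of those higher, against 12.3% of all probes printed once. The part of the position in these values was not tested. Hmga2, a chromatin protein gene of embryonic cells, was read elsewhere and by 2 probes, at -2.15 and -2.29, and was at -1.20 in parental cells, 1.66 in clone #1, -0.49 in clone #9 and 0.19 in the HoxA9-Ct clone. Zfp629, Miip and Scgb3a1 differed by -2.54, -2.23 and -2.06.

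Over all probes, 456 were at least 2-fold higher in clone #9 and dim in clone #1, and 202 the reverse, 1.54% and 0.681% of the 29678 above background in a clone. Without the last 48 rows of spots the counts were 351 and 118. In clone #9 the homeobox gene Dlx5 was at least 14.8-fold higher, and in clone #1 Nme8, Gm136, Olfr809, Actl6b and AF366264 were at least 14.8, 12.3, 10.8, 9.14 and 7.65-fold higher. For each of these 6 genes, all other lines were not above background, and 4 of the 6, Dlx5, Nme8, Gm136 and AF366264, were read in the last 48 rows.

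Neighbouring genes moved together at 16 places where at least 3 measured genes in a row were past 2-fold the same way, 13 higher in clone #9 and 3 lower. The lower ones were in Hox-B, in Hox-C and from Meg3 to Mirg. The higher ones include Zscan4a to Zscan4f, 5 kallikrein genes from Klk1b26 to Klk1 on chromosome 7 at 1.17 to 2.01, Snorc, Ngef and Inpp5d on chromosome 1 at 1.36 to 1.47, and Myl3 with 3 Prss genes on chromosome 9 at 1.06 to 1.60. For the kallikreins, Klk1 was at -1.46 in parental cells, -2.92 in clone #1, -1.11 in clone #9 and -1.95 in the HoxA9-Ct clone.

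On the other chromosomes, 505 probes over 2-fold higher in clone #9 were above background on all 4 arrays. Clone #9 alone lay outside the widened range of parental and HoxA9-Ct ES for 220 (43.6%), clone #1 alone for 107 (21.2%), and the clones lay on opposite sides for 75 (14.9%), against 0.509% of all probes. Of the 74 over 4-fold higher, 46 (62.2%) were on opposite sides. Clones on opposite sides of a range widened by 0.5 each way are over 2-fold apart by definition. That these shares exceed the share of all probes was therefore fixed in advance. Of the 174 over 2-fold lower, clone #9 alone lay outside for 84 (48.3%), clone #1 alone for 26 (14.9%), and both on the same side for 46 (26.4%).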

How the data were processed

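Expression was measured with 1 one-colour Agilent array for each of 4 ES cell lines. The authors ran Feature Extraction 10.10.1.1. Their deposited scanner output gives spot intensities, with a processed signal from which background had been subtracted. The authors' series matrix holds intensities that are this signal times a constant for each array, with column medians of 46.3, 46.8, 51.8 and 48.7 (parental, clone #1, clone #9, HoxA9-Ct). How the constants were set is not given in the sources used here.

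Control and outlier spots were left out, the 75th percentile of each array was subtracted on the log2 scale, and spots of a probe were averaged. For a gene dim in 1 clone, a lower bound was set against its own signal or the lowest signal well above background on that array, whichever was higher. With 1 array a line no test was made, and the number of arrays limits the precision. Symbols and gene order came from RefSeq (GRCm38.p6), and positions in the array annotation are in mm9.

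Named genes are the 10 largest rises and falls on and off chromosome 15, the 5 largest bounds each way, list genes past 2-fold or on chromosome 15, genes the study names and runs of at least 3 neighbours. Members and the 41 gene lists were chosen with earlier results of these data known. Alternatives were normexp (limma, offset 50, on the median spot signal because the mean signal the plan named is not in the columns), quantile normalization, other centring, the series matrix, other filters and folds. Counting and the search for stretches were tested on simulated data. Versions were Python 3.11.15, numpy 2.4.6, pandas 2.3.3, R 4.3.3 and limma 3.58.1.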

Additional observations from a re-analysis of the deposited data

How the results depend on the processing

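No paired analysis was possible because each line has 1 array. The difference of medians between chromosome 15 and the other chromosomes was 0.33 to 0.44 under every alternative listed for it. Neither this difference nor the chromosome 15 median changed sign, and no named gene did. A reversal was not defined for counts, nor for the median of the other chromosomes, which at -0.07 was smaller in size than 0.098. Of 114 alternative values of the main results, 82 stayed within 0.098 for a median or 1.5 times for a count. Below, probe counts are given as higher and lower on chromosome 15, then higher and lower on the other chromosomes, then dim in clone #1 and dim in clone #9. Normexp, whose offset pulls low signals together, gave 16 and 2, 171 and 37, 60 and 29. Without a filter on dim probes the first 4 were 155, 34, 2229 and 1323, and the chromosome 15 median was 0.17. Over 1.5-fold they were 199, 18, 1501, 907, 841 and 506, and over 4-fold 8, 1, 82, 24, 149 and 65. With 1 probe a gene, which counts fewer features, the higher count on chromosome 15 was 34, the lower count elsewhere 78, and the dim counts 222 and 53. With the mean over probes, the first 2 of these were 35 and 74. The lower count on chromosome 15 was 2 without Hox-C genes and 2 over probes above background on all 4 arrays, and the count dim in clone #9 was 118 without the last 48 rows of spots.

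Each of 88 named genes past 2-fold was recomputed under 6 scalings, and 63 of the 528 values, at 45 genes, came within 2-fold. Of these values 44 were under normexp, and the cause was not tested. The median of the chromosome 10 stretch ranged from 0.74 to 0.93, and that of the position-named probes from Meg3 to Mirg was -0.54 with normexp and -1.16 to -0.99 otherwise. Dim signals limit the rest: where neither clone was well above background no difference is given. The counts of probes dim in a clone were not run without the filter, over all 4 arrays or with the mean over probes, which leave no such probes to count.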
